A study of Rattus norvegicus with 30 samples.

Results

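The comparison set livers of rats fed soy protein with added isoflavone (SI) against livers of rats fed plain casein (C). It takes 10 of the 30 arrays of the study, 5 from SI and 5 from C, chosen by the diet in the array titles. Both the protein source and the isoflavone differ between these diets. All animals were male Sprague-Dawley rats received at 4 weeks of age, kept on stock diet for 5 days and then fed 1 of 6 diets for 14 days. SI supplied its 200 g/kg of protein as soy protein and carried an isoflavone mixture, whereas C supplied the same 200 g/kg as casein with no added isoflavone. Another pair of diets is used below as separate animals, namely soy protein without added isoflavone (S) and casein with the isoflavone mixture (CI), again with 5 rats each. The mixture was dosed to equal the isoflavone content of a tofu diet, in an amount that the labels do not state. The question put to these livers was how far expression moved when protein and isoflavone were changed together, and which of the differences also appear when only the protein, or the protein with the isoflavone in the other arm, is changed.

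Casein and soy protein differ in amino acid composition, casein being the richer in methionine. The liver makes fatty acids from surplus carbohydrate through a chain of cytosolic enzymes, under the transcription factors SREBP-1c and ChREBP, and makes S-adenosylmethionine, its general methyl donor, from methionine. Isoflavones such as genistein and daidzein are plant compounds that bind estrogen receptors and are cleared by conjugation to glucuronide and sulfate. Feeding soy in place of casein is known to lower serum lipids in rats.

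Expression was measured on 1-colour Affymetrix arrays with 1 array per liver. The median intensity lay between 216.9 and 239.7 on SI arrays and between 227.6 and 239.9 on C arrays. The 3' to 5' signal ratio of the GAPDH control lay between 1.06 and 1.19 in SI and between 1.01 and 1.19 in C, and that of actin between 1.92 and 2.83 in SI and between 2.21 and 2.65 in C. Each array correlated with the others of its diet at a mean r between 0.9697 and 0.9735 in SI and between 0.9668 and 0.9729 in C, so no array of either diet stood apart. The labels list identical normalization parameters for C replicate 3 and CI replicate 3, and the counts without them are given with the limits. Hepatocyte markers had a summed intensity of 377000 to 477000 in SI and of 349000 to 451000 in C. Because whole liver was profiled, fewer cells of a type and less RNA per cell cannot be told apart.

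Levels below are log2 of the deposited intensity, differences are SI minus C in log2 units ± SE with 5 livers per diet, and adjusted p-values are from limma over 18625 tested probe sets. Of these, 1337 (7.18%) passed an adjusted p of 0.05, 650 (3.49%) being higher in SI and 687 (3.69%) lower. Counted once per gene, 843 of 10699 genes passed (7.88%), 463 (4.33%) higher and 380 (3.55%) lower. Among the probe sets that passed, 52 higher and 49 lower ones differed by at least 1 log2 unit, and 6 higher and 9 lower ones by at least 2 units. Complete separation of the 5 SI from the 5 C livers was seen in 683 probe sets that were higher (3.67% of those tested) and in 745 that were lower (4%). The share of higher calls depended on the scaling of the arrays. It was 48.6% as deposited, 64% after quantile normalization, 64.7% after median centring and 69.6% after equal median and spread, while the median difference of all probe sets moved only between -0.033 and 0.025. Without SI replicate 5 the number passing was 836, and without C replicate 1 it was 846, the lower calls being 383 in each case. Lower calls also numbered 425 without SI replicate 4, and higher calls 422 without SI replicate 2.

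*Pnpla3* had the largest fall among the leading genes, and *Mat2a* and *Fmo1* the smallest p-values among genes that rose. *Pnpla3* encodes a lipid droplet protein with lipase and acyltransferase activity. *Mat2a* encodes the catalytic subunit of the methionine adenosyltransferase found mainly outside the adult hepatocyte, and *Fmo1* a flavin-containing monooxygenase that oxidises nitrogen and sulfur in drugs. Their promoter sequences, 250 bases ending at the gene start, are shown so that the regions upstream of the genes can be compared. They come from RefSeq on build GRCr8, are read 5' to 3' on the gene's strand, and have CCAAT on either strand (ATTGG is its reverse complement) in capitals.
Mat2a, chr4:106053613-106053862, minus strand: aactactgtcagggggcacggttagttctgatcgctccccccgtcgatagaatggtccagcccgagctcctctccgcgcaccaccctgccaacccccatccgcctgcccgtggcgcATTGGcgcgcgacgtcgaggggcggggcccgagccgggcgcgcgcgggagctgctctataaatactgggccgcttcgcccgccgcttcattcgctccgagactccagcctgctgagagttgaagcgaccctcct
Fmo1, chr13:77747667-77747916, minus strand: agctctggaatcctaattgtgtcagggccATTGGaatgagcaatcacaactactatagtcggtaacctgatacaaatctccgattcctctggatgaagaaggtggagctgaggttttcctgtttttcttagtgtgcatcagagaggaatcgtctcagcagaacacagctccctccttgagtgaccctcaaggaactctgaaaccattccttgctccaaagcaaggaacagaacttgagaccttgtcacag
Pnpla3, chr7:117173278-117173527, plus strand: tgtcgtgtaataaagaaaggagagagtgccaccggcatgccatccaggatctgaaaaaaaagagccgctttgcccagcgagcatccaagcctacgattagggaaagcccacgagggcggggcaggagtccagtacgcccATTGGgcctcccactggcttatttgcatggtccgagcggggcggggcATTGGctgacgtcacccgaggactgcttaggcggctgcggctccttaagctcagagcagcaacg
*Mat2a* and *Fmo1* held 1 CCAAT each and *Pnpla3* 2, in a motif that 34.3% of 27457 rat promoters of the same length hold. The match is a description of these letters and not a binding site.

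*Pnpla3* had the largest fall of any named gene. Its level was 8.97, 8.62, 7.27, 7.46 and 8.11 in the SI livers, against 12.68, 12.13, 11.96, 11.68 and 11.93 in the C livers. Every SI liver lay at least 2 log2 units under every C liver, and the mean was 8.09 ± 0.73 in SI and 12.08 ± 0.38 in C (SD, n = 5 each). The difference was -3.99 ± 0.47 (adjusted p = 4.18e-06), a level 15.9-fold higher in C. The other 2 probe sets of *Pnpla3* gave -4.81 ± 0.50 and -2.59 ± 0.35, with adjusted p of 5.83e-07 and 3.14e-05. *Me1*, the cytosolic malic enzyme that supplies NADPH for fatty acid synthesis, had levels of 10.43, 10.43, 11.26, 10.81 and 10.48 in SI, against 13.10, 12.44, 12.51, 12.67 and 12.79 in C. Those groups did not overlap, and the difference was -2.02 ± 0.19 (adjusted p = 9.84e-08), with -2.36 ± 0.27 from a second probe set. *Acacb*, the acetyl-CoA carboxylase whose malonyl-CoA restrains mitochondrial fatty acid uptake, had levels of 7.89, 7.5, 7.6, 7.32 and 7.23 in SI, against 8.38, 8.53, 9.27, 8.84 and 9.07 in C. It fell by 1.31 ± 0.18 (adjusted p = 2.89e-05).

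Of the 28 tested genes of fatty acid and triglyceride synthesis, 6 fell, 1 rose and 21 did not pass (25% called, against 7.88% of all genes), and the median difference was -0.30 against -0.033 for all probe sets. Beside *Pnpla3*, *Me1* and *Acacb*, the desaturases of polyunsaturated fatty acids fell, *Fads2* by 1.07 ± 0.16 (adjusted p = 0.00012) and *Fads1* by 0.61 ± 0.15 (adjusted p = 0.0124). *Fads1* did not pass when arrays were given equal median and spread (adjusted p = 0.138). The sixth was the elongase *Elovl2* at -0.58 ± 0.17 (adjusted p = 0.0381), which did not pass without any one of SI replicates 1, 2 and 4 and C replicates 1, 3, 4 and 5 (between 0.0111 and 0.108 with single arrays left out). *Agpat2*, an acyltransferase of triglyceride and phospholipid assembly, went the other way at 0.53 ± 0.11 (adjusted p = 0.00362).

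The core synthesis enzymes did not pass, and the SI livers differed widely among themselves in them. *Fasn*, fatty acid synthase, had levels of 13.89, 14.08, 12.34, 11.43 and 11.86 in SI, against 14.01, 14.23, 13.51, 13.02 and 13.49 in C. SI replicates 1 and 2 thus lay within the C range and replicates 3, 4 and 5 under all of it, with an SD of 1.20 in SI and 0.48 in C. Its difference was -0.93 ± 0.47 (adjusted p = 0.234, and between 0.111 and 0.507 with single arrays left out). The same SI replicates 1 and 2 were the highest of their diet for *Acly* (ATP citrate lyase), at 14.75 and 14.61, for *Srebf1* (the gene of SREBP-1), at 13.77 and 13.55, and for *Acaca* (the cytosolic acetyl-CoA carboxylase), at 12.23 and 12.34. *Acly* differed by -0.44 ± 0.29 (adjusted p = 0.391), *Srebf1* by -0.27 ± 0.36 (0.725), *Acaca* by -0.31 ± 0.18 (0.317) and *Scd*, the stearoyl-CoA desaturase, by -0.51 ± 0.28 (0.286). *Pnpla3* was also highest in SI replicates 1 and 2, yet remained far under C in both, whereas *Me1* was among its lowest there. C replicates 1 and 2 were likewise the highest of their diet for *Fasn*, *Acly* (14.81 and 14.84), *Srebf1* (13.92 and 13.41) and *Pnpla3*. They were not the highest for *Acaca*. In S and CI, replicates 1 and 2 were the highest for *Srebf1* alone of these genes.

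**Figure D1:**
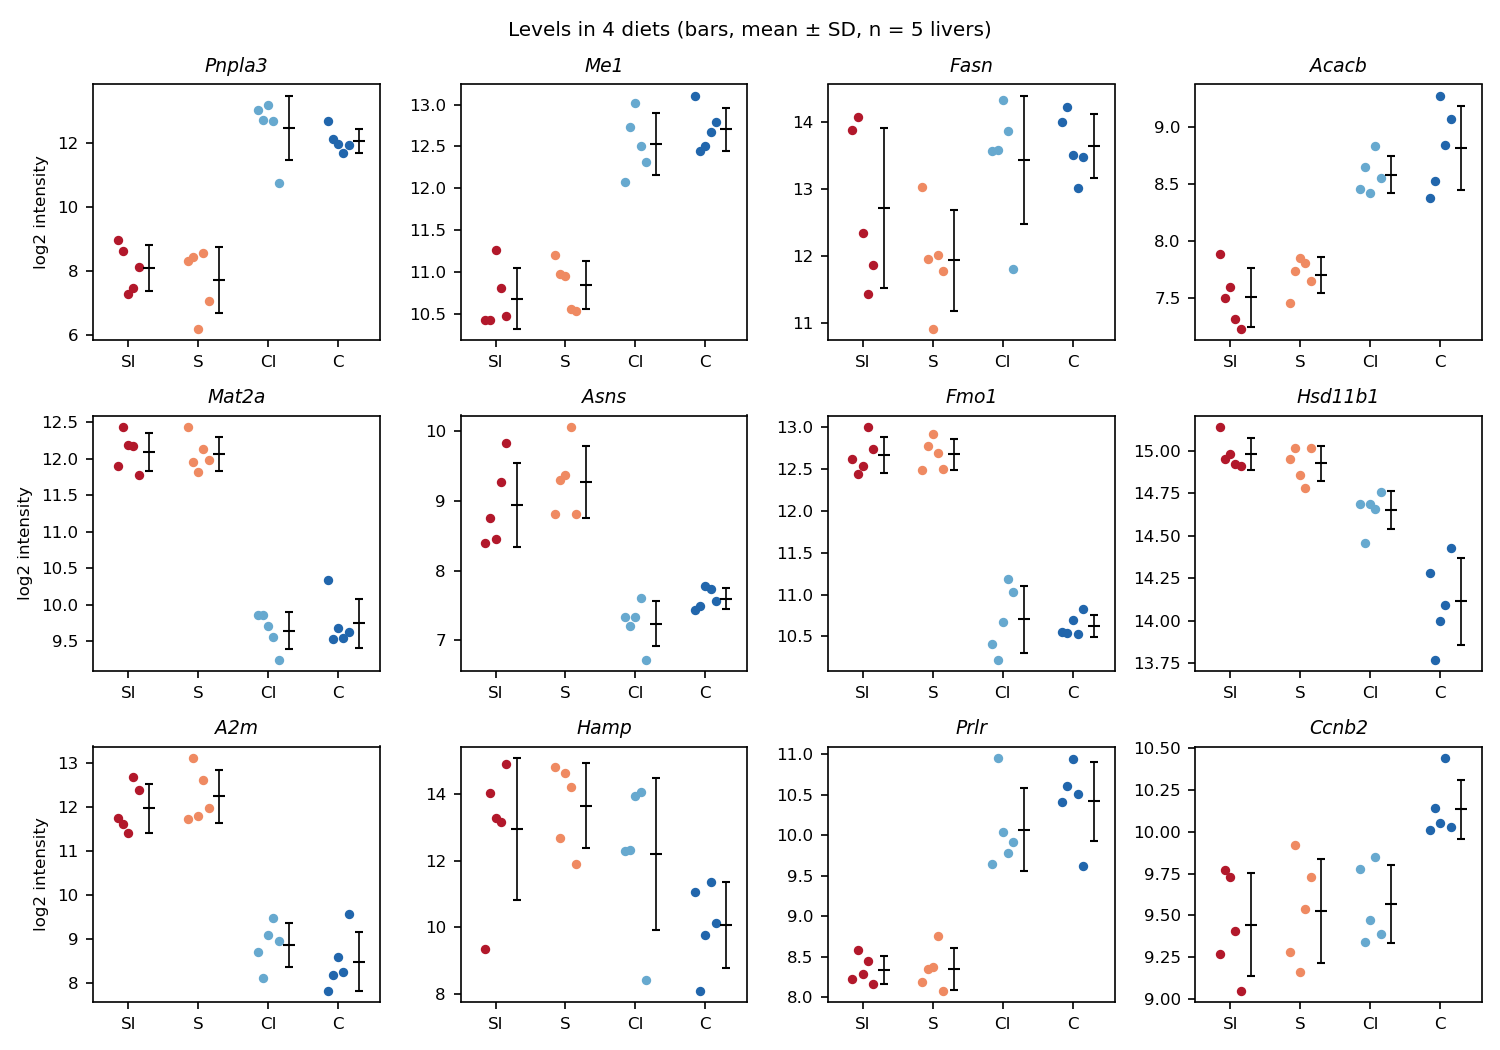
Log2 intensity of 12 genes in each liver on the 4 diets, SI, S, CI and C from left to right, with the mean and SD beside the points (n = 5 livers each). *Pnpla3*, *Me1*, *Mat2a*, *Fmo1*, *A2m* and *Prlr* fall into a soy pair and a casein pair, *Fasn* and *Hamp* spread widely within diets, and for *Hsd11b1* and *Ccnb2* the CI livers lie nearer to the soy diets than the C livers do.

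Of the 19 tested genes of cholesterol synthesis and uptake, 3 fell, none rose and 16 did not pass (15.8% called, against 7.88% of all genes), with a median of -0.18. *Stard4*, a cytosolic sterol carrier, fell by 0.73 ± 0.16 (adjusted p = 0.00366), while its other 2 probe sets, at -0.14 ± 0.12 and -0.34 ± 0.15, did not pass (0.544 and 0.156). *Ebp* and *Sc5d*, enzymes of late sterol synthesis, differed by -0.46 ± 0.11 and -0.53 ± 0.14 (adjusted p = 0.00975 and 0.0172). When arrays were given equal median and spread, *Ebp* had adjusted p = 0.119. *Sc5d* lost its call under that scaling and under median centring (up to 0.133).

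*Abcg5* and *Abcg8*, whose products form the exporter of sterols into bile, had higher means in SI without passing. *Abcg5* had levels of 9.11, 9.10, 9.48, 9.40 and 9.65 in SI, against 7.95, 8.21, 8.38, 8.74 and 9.08 in C, so that every SI liver lay above every C liver, the nearest by a narrow margin. The difference was 0.88 ± 0.35 for *Abcg5* (adjusted p = 0.125) and 1.08 ± 0.42 for *Abcg8* (0.112). In the fit to the SI and C arrays only, *Abcg5* passed (adjusted p = 0.0265). *Cyp7a1*, which sets the pace of bile acid synthesis from cholesterol, differed by 0.98 ± 0.59 (0.334), with 4 of 5 C livers under every SI liver and C replicate 4, at 10.51, above them all. Of 29 tested genes of sterol efflux and lipoproteins, 2 rose and 2 fell (13.8% called, against 7.88% of all genes), with a median of 0.06 that changed sign under another scaling. *Lipa*, the lysosomal acid lipase, fell by 0.52 ± 0.11 (adjusted p = 0.0039). *Apoc2*, the apolipoprotein that activates lipoprotein lipase, rose by 0.33 ± 0.08 (adjusted p = 0.0142), with up to 0.0587 under equal median and spread and in the fit to the SI and C arrays only. *Lipc*, hepatic lipase, at -0.41 ± 0.11 (adjusted p = 0.0167) did not pass without C replicate 1 (0.0667) or under equal median and spread (0.164). *Apoa2* at 0.38 ± 0.11 did not pass without any one of SI replicates 1, 2 and 5 and C replicates 2, 3 and 4 (up to 0.0981). It also lost the call under quantile normalization and equal median and spread.

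Among 24 tested genes of bile acid metabolism, 1 rose and 3 fell (16.7% called, against 7.88% of all genes). *Slco1a1*, an organic anion transporter of the sinusoidal membrane, had levels of 10.34, 9.94, 10.18, 10.04 and 9.87 in SI, against 11.79, 10.77, 10.90, 10.97 and 11.07 in C. All SI livers lay under all C livers, and the difference was -1.02 ± 0.24 (adjusted p = 0.00844). The calls of the other 3, *Hsd3b7* at 0.86 ± 0.23, *Baat* at -0.37 ± 0.10 and *Slc27a2* at -0.35 ± 0.10, depended on single arrays. *Hsd3b7* did not pass without SI replicate 4 or C replicate 2 (up to 0.0711), *Baat* without SI replicate 4 or C replicate 1 (up to 0.067), and *Slc27a2* without any one of SI replicates 3, 4 and 5 and C replicates 1, 4 and 5 (up to 0.104). In the fit to the SI and C arrays only, *Hsd3b7* had adjusted p = 0.0778. Under equal median and spread *Baat* had 0.357. *Slc27a2* lost its call under that scaling and several other settings (up to 0.283).

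Of 38 tested genes for fatty acid oxidation or under PPAR-alpha, 1 rose and 4 fell (13.2% called, against 7.88% of all genes). *Pdk4*, the kinase that shuts pyruvate dehydrogenase when fat is the fuel, had levels of 10.72, 9.92, 10.53, 10.05 and 11.12 in SI, against 12.10, 12.00, 11.92, 11.98 and 12.47 in C. Those groups did not overlap, and the fall was 1.62 ± 0.30 (adjusted p = 0.000922), with -0.93 ± 0.18 from a second probe set. *Acot2*, a mitochondrial acyl-CoA thioesterase, fell by 0.61 ± 0.14 (adjusted p = 0.00553), and *Eci2*, an enoyl-CoA isomerase, by 0.31 ± 0.08 (adjusted p = 0.0107, with up to 0.121 under equal median and spread and in the fit to the SI and C arrays only). *Acaa2*, at 0.31 ± 0.08, did not pass without any one of SI replicates 1, 2 and 5 and C replicate 4 (up to 0.0708). Its second probe set lay at -0.11 ± 0.13 (adjusted p = 0.667), and the mean of both did not pass (0.491). *Decr1*, at -0.39 ± 0.12, did not pass without any array but SI replicate 3 and C replicate 2 (up to 0.134). It also lost the call under median centring, equal median and spread and other settings (up to 0.316). *Cpt1a*, which admits fatty acids to mitochondria, differed by -0.75 ± 0.29 (adjusted p = 0.114), and by up to -0.98 with adjusted p = 0.044 without SI replicate 5, the SI liver with the highest level of it. *Acsl4*, an acyl-CoA synthetase that prefers arachidonic acid and a leading gene outside these lists, fell by 1.53 ± 0.18 (adjusted p = 3.01e-06).

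*Mat2a* had the smallest p-value of all genes. Its level was 11.90, 12.43, 12.19, 12.17 and 11.78 in SI, against 10.34, 9.53, 9.68, 9.55 and 9.63 in C. The groups were separated by more than 1 log2 unit even though C replicate 1 stood above the other C livers. The mean was 12.09 ± 0.26 in SI and 9.75 ± 0.34 in C (SD, n = 5 each), and the difference 2.35 ± 0.18 (adjusted p = 3.94e-09) was a 5.09-fold higher level in SI. A second probe set of *Mat2a* gave 2.01 ± 0.19 (adjusted p = 1.39e-07).

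Of 29 tested genes of methionine, one-carbon and sulfur amino acid metabolism, 4 rose, 1 fell and 24 did not pass (17.2% called, against 7.88% of all genes). The median was 0.03 and changed sign under another scaling. *Csad*, which forms hypotaurine on the way to taurine, rose by 0.82 ± 0.16 (adjusted p = 0.0013). *Odc1*, the first enzyme of polyamine synthesis, rose by 0.51 ± 0.13 (adjusted p = 0.0123), although it had adjusted p = 0.0559 in the fit to the SI and C arrays only. *Pemt*, the methyltransferase that makes phosphatidylcholine, and *Cbs*, which commits homocysteine to cysteine, passed at 0.42 ± 0.13 and -0.48 ± 0.15 (adjusted p = 0.0486 and 0.0446). *Pemt* lost its call without any array but SI replicate 4 (up to 0.11), and *Cbs* without any one of SI replicates 1, 2, 4 and 5 and C replicates 2, 3 and 4 (up to 0.142).

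ATF4 is the transcription factor that cells raise when an amino acid is short, and *Asns*, asparagine synthetase, is a standard target of it. Of 32 tested genes of this response, 4 rose, none fell and 28 did not pass, with a median of 0.14. The share called was 12.5%, against 7.88% of all genes. *Asns* had levels of 8.40, 8.75, 8.46, 9.27 and 9.83 in SI, against 7.43, 7.49, 7.78, 7.73 and 7.56 in C. No SI liver reached down to the C range, and the difference was 1.34 ± 0.24 (adjusted p = 0.000678). *Aldh18a1*, the first step of proline synthesis, rose by 0.99 ± 0.14 (adjusted p = 3.53e-05). *Slc3a2*, the heavy chain of amino acid exchangers, at 0.60 ± 0.15 (adjusted p = 0.0141) had 0.0501 without C replicate 5. *Gpt2*, the mitochondrial alanine aminotransferase, at 0.74 ± 0.21 (adjusted p = 0.0281) lost its call without any one of SI replicates 1, 2 and 4 and C replicates 1 and 4 (up to 0.103). The composite element TGATGNAA, searched on both strands as the motif of C/EBP and ATF dimers, stood in the promoters of 7 of the 30 tested list members with a promoter on record (23.3%) and in 3.27% of all rat promoters. Those 7 were *Aars1*, *Chac1*, *Fgf21*, *Nars1*, *Nupr1*, *Slc7a1* and *Trib3*, with adjusted p between 0.218 (*Chac1*) and 0.965 (*Nars1*). The element was in none of the 3 promoters on record for genes that rose, those of *Asns*, *Gpt2* and *Slc3a2*. *Aldh18a1* had no promoter on record. The search covered only the bases ending at the recorded gene start, over the same length as the promoters shown above. Elements outside that window would be missed, and whether ATF4 acts on any of these genes was not tested.

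In the urea cycle and amino acid degradation list 2 of 48 rose and 2 fell, a share of 8.33% that is near the 7.88% of all genes. *Glul*, glutamine synthetase, had levels of 12.97, 12.89, 12.92, 13.00 and 13.27 in SI, against 12.53, 12.24, 12.64, 12.56 and 12.62 in C. It rose by 0.49 ± 0.12 (adjusted p = 0.0133; 0.0512 without SI replicate 5). *Oat*, ornithine aminotransferase, lay lower in all SI livers than in any C liver and differed by -0.84 ± 0.23 (adjusted p = 0.0264). It had up to 0.069 without any one of SI replicates 2, 3 and 4 and C replicates 1, 2 and 4, and 0.0765 under equal median and spread. *Kynu* at -0.44 ± 0.12 did not pass without SI replicate 5 or C replicate 1 (up to 0.0653), nor under equal median and spread (0.179). *Glud1* did not pass without any one of 7 arrays (up to 0.104), which were all but SI replicate 3 and C replicates 3 and 5. It also lost the call under quantile normalization and equal median and spread. *Glud1* had 0.31 ± 0.09 (adjusted p = 0.0364) in this probe set and -0.01 ± 0.13 (0.989) in the other, and the mean of both did not pass (0.394).

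*Glul* and *Oat* are also markers of the hepatocytes around the central vein. Of 10 tested pericentral markers 3 rose and 1 fell (40% called, against 7.88% of all genes), with a median of 0.33, and of 12 periportal markers none passed. *Slc1a2*, a glutamate transporter of the same cells, had levels of 8.71, 7.92, 8.13, 8.13 and 8.61 in SI, against 7.26, 7.34, 6.71, 6.95 and 6.71 in C, and rose by 1.31 ± 0.23 (adjusted p = 0.000505). The SI livers lay clear of the C livers, whose mean was under the filter level of 7.39 for dim probe sets. *Gulo*, which completes vitamin C synthesis in rodents, rose by 0.35 ± 0.08 (adjusted p = 0.00672; 0.121 after quantile normalization). The summed intensity of the 11 pericentral markers on the array was 89100 to 109000 in SI and 75300 to 92100 in C, and that of the periportal markers 155000 to 199000 in SI and 156000 to 204000 in C. The part of a zonal shift in any result was not tested.

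Genes of xenobiotic metabolism moved in both directions, 5 of 38 higher and 2 lower (18.4% called, against 7.88% of all genes). *Fmo1* had levels of 12.62, 12.44, 12.54, 13.00 and 12.74 in SI, against 10.55, 10.54, 10.69, 10.53 and 10.83 in C. The livers of each diet were tightly grouped, and the difference of 2.04 ± 0.18 (adjusted p = 4.59e-08) was a 4.11-fold higher level in SI. *Sult1c2*, a cytosolic sulfotransferase, rose by 1.91 ± 0.39 (adjusted p = 0.00237). The carboxylesterases *Ces1d* and *Ces2c* rose by 0.85 ± 0.16 and 0.61 ± 0.13 (adjusted p = 0.00155 and 0.00356). *Cyp2c7*, a retinoid-metabolising cytochrome P450 of rat liver, fell by 0.70 ± 0.11 (adjusted p = 0.000162). *Nr1i3*, the nuclear receptor CAR, at 1.12 ± 0.33 (adjusted p = 0.0369) and *Nat1*, an arylamine acetyltransferase, at -0.62 ± 0.18 (adjusted p = 0.0319) each lost the call without any one of 7 arrays, with up to 0.115 and 0.0906. For *Nr1i3* these were all but SI replicate 1 and C replicates 1 and 4, and for *Nat1* all but SI replicates 1 and 3 and C replicate 3. In the glutathione and NRF2 list *Gsta1*, a glutathione transferase, was the 1 gene of 31 that passed (3.23%), at -0.52 ± 0.12 (adjusted p = 0.00501; 0.0688 after equal median and spread).

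**Figure D2:**
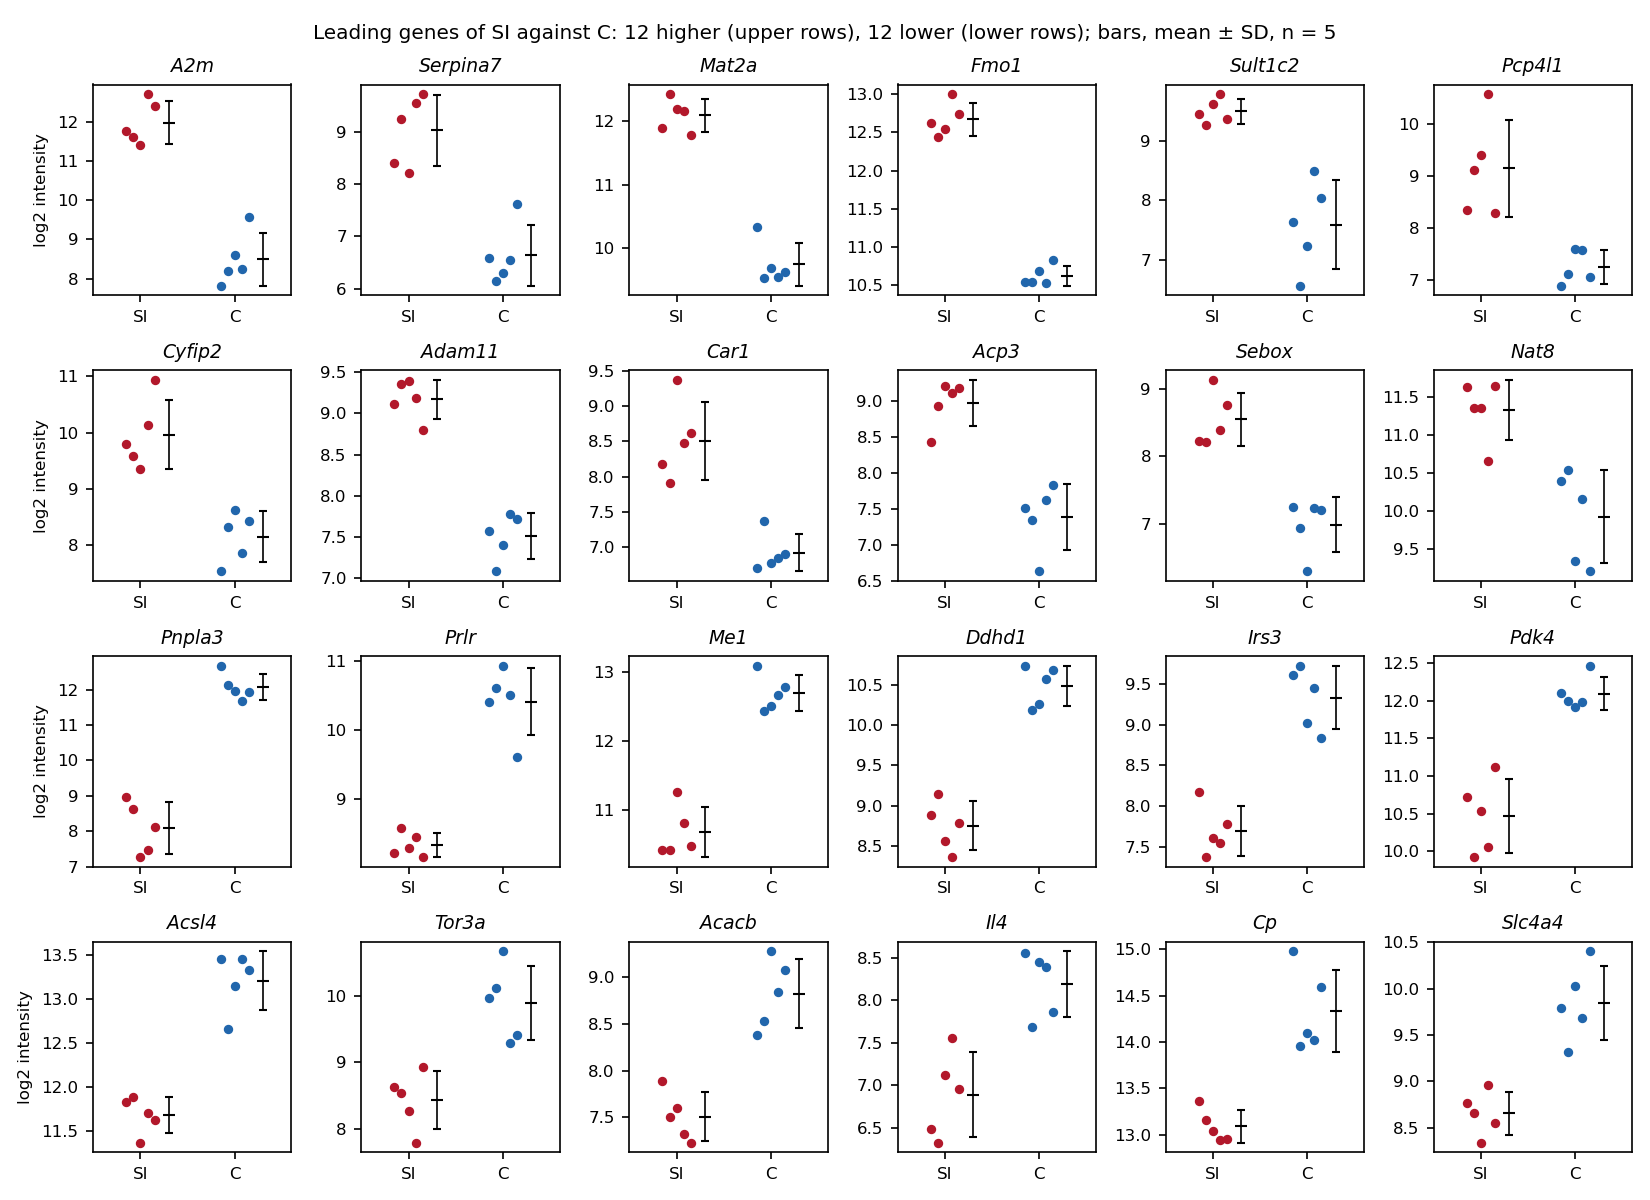
Log2 intensity in each SI and C liver for the 12 genes with the largest rise (upper rows) and the 12 with the largest fall (lower rows) among genes that passed and whose groups did not overlap; bars give mean and SD, n = 5 livers each. The genes were chosen by this separation, so it is a description, and *Pnpla3* and *A2m* show the widest gaps.

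The 12 genes with the largest rise among those whose groups did not overlap were led by *A2m*, the gene of alpha-2-macroglobulin, a protease inhibitor and a major acute phase protein of the rat. Its level was 11.75, 11.61, 11.41, 12.70 and 12.40 in SI, against 7.82, 8.19, 8.60, 8.25 and 9.57 in C. The lowest SI liver lay well above the highest C liver, and the difference of 3.49 ± 0.37 (adjusted p = 6.87e-07) was an 11.2-fold higher level in SI. *Serpina7*, which encodes thyroxine-binding globulin, rose by 2.39 ± 0.53 (adjusted p = 0.00501). The others after *Mat2a*, *Fmo1* and *Sult1c2* were *Pcp4l1* at 1.90, *Cyfip2* (a component of the actin-regulating WAVE complex) at 1.81, *Adam11* at 1.66, *Car1* (a carbonic anhydrase) at 1.59, *Acp3* (an acid phosphatase) at 1.58, *Sebox* (a homeobox protein) at 1.57 and *Nat8* (an acetyltransferase of cysteine conjugates) at 1.41. The C means of *Serpina7*, *Pcp4l1*, *Car1* and *Sebox* lay under the filter level of 7.39, so these 4 rose out of dim signal.

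*Prlr*, the prolactin receptor, followed *Pnpla3* among the 12 genes with the largest fall. Its level was 8.22, 8.58, 8.29, 8.45 and 8.16 in SI, against 10.41, 10.61, 10.94, 10.51 and 9.62 in C. Each SI liver was more than 1 log2 unit under the lowest C liver, and the difference was -2.08 ± 0.33 (adjusted p = 0.000196), with -3.21 ± 0.48 from a second probe set. *Ddhd1*, an intracellular phospholipase, fell by 1.75 ± 0.20 (adjusted p = 3.01e-06) and *Irs3*, a rodent insulin receptor substrate, by 1.63 ± 0.25 (adjusted p = 0.000127). *Irs3* was the 1 of 27 tested genes of glucose metabolism and insulin signalling that passed (3.7%). *Tor3a*, a torsin ATPase, fell by 1.44 ± 0.29, and *Slc4a4*, a sodium bicarbonate cotransporter, by 1.19 ± 0.20. *Cp*, ceruloplasmin, had levels of 13.37, 13.16, 13.04, 12.94 and 12.95 in SI, against 14.98, 13.96, 14.10, 14.02 and 14.60 in C, and fell by 1.24 ± 0.19 (adjusted p = 0.000105). The SI livers all lay under the C livers in it; a second probe set of *Cp* gave -1.16 ± 0.17 and its remaining, dimmer one 0.16 ± 0.19 (adjusted p = 0.679). *Il4*, the interleukin, had a mean of 6.89 in SI, under the filter level, and of 8.19 in C, and differed by -1.30 ± 0.40 (adjusted p = 0.0468), and lost its call without any array other than SI replicate 4 and C replicate 2 (up to 0.116).

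Of 29 tested acute phase proteins, *A2m* and *Orm1* rose, *Cp* fell and 26 did not pass (10.3% called, near the 7.88% of all genes), with a median of 0.07 that changed sign under another scaling. *Orm1*, alpha-1-acid glycoprotein, had levels of 15.24, 15.13, 15.26, 15.33 and 15.18 in SI, against 14.16, 14.01, 13.72, 14.11 and 14.38 in C, and rose by 1.15 ± 0.16 (adjusted p = 3.52e-05). The SI livers were tightly grouped above the C livers. No macrophage, neutrophil or lymphocyte marker passed, among 13, 2 and 7 tested. Macrophage markers summed to 31100 to 47100 in SI and 38600 to 43200 in C, and the part of immune cells in the acute phase values was not tested.

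Of 28 tested genes of hepcidin and iron, 3 rose and 2 fell (17.9% called, against 7.88% of all genes). *Hfe*, a sensor of iron-bound transferrin upstream of hepcidin, had levels of 11.13, 11.18, 11.34, 10.97 and 11.07 in SI, against 10.46, 10.87, 10.67, 10.72 and 10.51 in C. All SI livers lay above all C livers, and it rose by 0.49 ± 0.08 (adjusted p = 0.000167). *Hamp*, the gene of hepcidin itself, had the second largest rise of all named genes but a wide spread; its levels were 9.35, 14.03, 13.28, 13.14 and 14.90 in SI, against 11.05, 8.10, 9.77, 11.36 and 10.12 in C. SI replicate 1 lay within the C range and the other SI livers above it. The difference was 2.86 ± 0.87 (adjusted p = 0.0424), and the call was lost without any array but SI replicate 1 and C replicate 4 (between 0.0034 and 0.131). *Smad7*, an inhibitor of the signalling that induces hepcidin, and *Aco1*, the cytosolic aconitase that binds iron-responsive elements, passed at 0.53 ± 0.16 and -0.47 ± 0.14 (adjusted p = 0.0412 and 0.038). *Smad7* lost its call without any array but SI replicate 1 and C replicate 3 (up to 0.106), and *Aco1* without any but SI replicates 1 and 5 and C replicate 1 (up to 0.105).

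Genes tied to steroid and thyroid hormones were the list with the highest share of calls among the 18 pathway lists, with 4 of 19 higher and 3 lower (36.8%, against 7.88% of all genes). The lists were chosen with earlier results of these data known, so this share and rank, like those of the other lists, are a description. *Hsd11b1*, the enzyme that regenerates active glucocorticoid, had levels of 15.14, 14.95, 14.98, 14.92 and 14.91 in SI, against 14.28, 13.77, 14.00, 14.09 and 14.43 in C. The SI livers were nearly uniform and all lay above the C livers, and it rose by 0.87 ± 0.10 (adjusted p = 4.18e-06). *Hsd17b11*, a steroid dehydrogenase of lipid droplets, rose by 0.38 ± 0.07 (adjusted p = 0.000971). *Thrb*, the thyroid hormone receptor beta, fell by 0.45 ± 0.10 (adjusted p = 0.00421), with adjusted p = 0.0501 in the fit to the SI and C arrays only. *Hsd17b4*, *Agt* and *Nrip1* passed at -0.32 ± 0.08, 0.31 ± 0.08 and -0.69 ± 0.19. *Hsd17b4* lost its call without SI replicate 4 or C replicate 1 (up to 0.0569), *Agt* without SI replicate 2 or C replicate 1 (up to 0.0615), and *Nrip1* without SI replicate 2, SI replicate 4 or C replicate 1 (up to 0.0936). Under equal median and spread *Hsd17b4* had adjusted p = 0.232. *Agt* lost its call under that scaling and after quantile normalization (up to 0.288).

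Of 32 genes of the growth hormone axis and sex-biased expression, 3 fell and none rose (9.38% called, near the 7.88% of all genes). They were *Prlr*, *Cyp2c7* and *Onecut2*, a liver transcription factor, at -0.65 ± 0.14 (adjusted p = 0.00477). In the cell cycle list 1 of 38 rose and 3 fell (10.5% called, near the 7.88% of all genes). *Ccnb2*, cyclin B2, had levels of 9.27, 9.77, 9.73, 9.41 and 9.05 in SI, against 10.01, 10.14, 10.05, 10.44 and 10.03 in C. The groups did not overlap, and it differed by -0.69 ± 0.18 (adjusted p = 0.0168), with up to 0.0612 without SI replicate 5 or C replicate 4. The mitotic genes *Kif20a* and *Top2a* at -0.62 ± 0.19 and -0.76 ± 0.23, and the G1 cyclin gene *Ccnd1* at 0.62 ± 0.18, had adjusted p up to 0.118, 0.134 and 0.114 with single arrays left out. *Kif20a* lost its call without any array but SI replicate 2 and C replicate 5, *Top2a* without any but SI replicate 1 and C replicate 3 and in the mean of its 2 probe sets (0.054), and *Ccnd1* without any one of SI replicates 2, 4 and 5 and C replicates 2 and 5. In the clock list *Nfil3* was the 1 of 17 that passed (5.88%), at -1.0 ± 0.28 (adjusted p = 0.0293), and lost it without any one of SI replicates 2 and 4 and C replicates 3, 4 and 5 (up to 0.104). In the stress list *Hspd1*, the mitochondrial chaperonin, was the 1 of 27 (3.7%), at 0.28 ± 0.09 (adjusted p = 0.0489). With 1 array left out it kept the call only without SI replicate 3, SI replicate 4 or C replicate 1 (up to 0.124 otherwise). It also lost the call under quantile normalization, equal median and spread and other settings (up to 0.188).

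**Figure D3:**
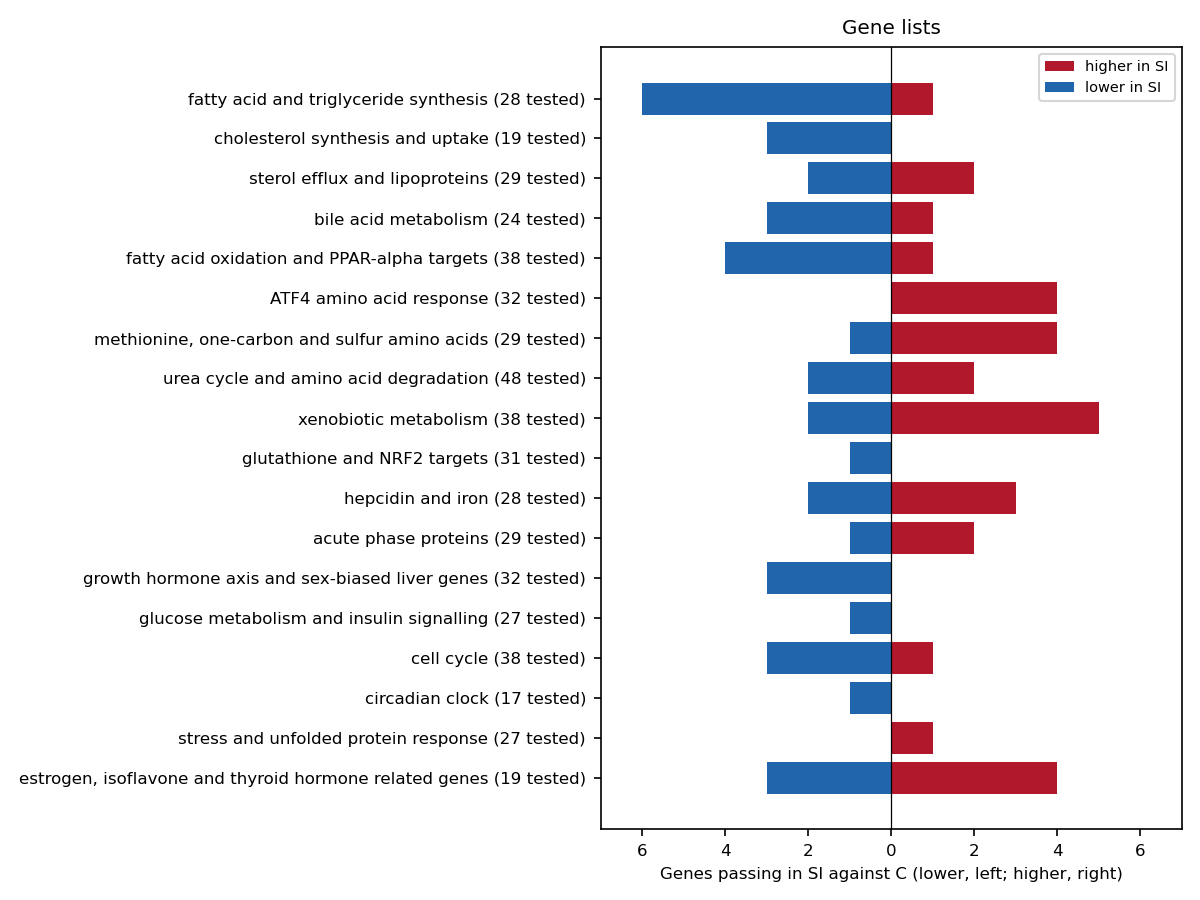
Number of genes passing in SI against C for each of the 18 pathway lists, lower in SI to the left and higher to the right, with the number tested beside each name. Fatty acid and triglyceride synthesis has 6 lower against 1 higher, the ATF4 response 4 higher and 0 lower, and xenobiotic metabolism 5 higher and 2 lower.

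Markers of other cells were followed as well. Of the 11 cell lists other than the pericentral and periportal ones, 10 had no gene that passed. The exception was *Fabp2*, an enterocyte protein that binds fatty acids, at -1.14 ± 0.22 (adjusted p = 0.00169). Intestine and kidney markers, *Fabp2* among them, summed to 833 to 907 in SI and 1000 to 1350 in C. Of the 6 on the array 2 were tested, *Vil1*, *Umod*, *Aqp2* and *Slc12a1* being under the filter level. This sum is therefore not separate from the *Fabp2* result. Exocrine pancreas markers summed to 2110 to 2990 in SI and 3080 to 3430 in C, with 6 of 9 under the filter level, and endothelial markers to 16400 to 17500 in SI and 17300 to 18600 in C. The part of these cells in other results was not tested.

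Which of these differences appear without the isoflavone can be read against S, the same protein with none added. In SI against S, 0 of 18625 probe sets passed (0%), and the smallest adjusted p was 0.446. An unadjusted p under 0.05 was reached by 664 probe sets, where chance alone would give 931. For *Mat2a* the difference was 0.03 with a 95% interval of -0.34 to 0.40, for *Fmo1* -0.01 with -0.37 to 0.36, for *Me1* -0.17 with -0.55 to 0.22 and for *Pnpla3* 0.37 with -0.60 to 1.34. The interval included 0 for 23 of the 24 leading genes, *Il4* being the exception at -1.08 (-1.91 to -0.25). An interval that includes 0 does not show that a difference is absent. It was narrow beside the SI minus C difference for genes such as *Mat2a* and *Fmo1*, but wide for some others. For *Serpina7* it was -1.98 to 0.17 beside 2.39 in SI minus C, and for *Pdk4* -1.16 to 0.05 beside -1.62. These SI arrays are also those that chose the genes. The 3 genes of smallest p in SI against S were *Dzip1l* at -2.07, *Hpd* (an enzyme of tyrosine breakdown) at 0.27 and *Kcns2* at -1.84, each with adjusted p of at least 0.446.

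**Figure D4:**
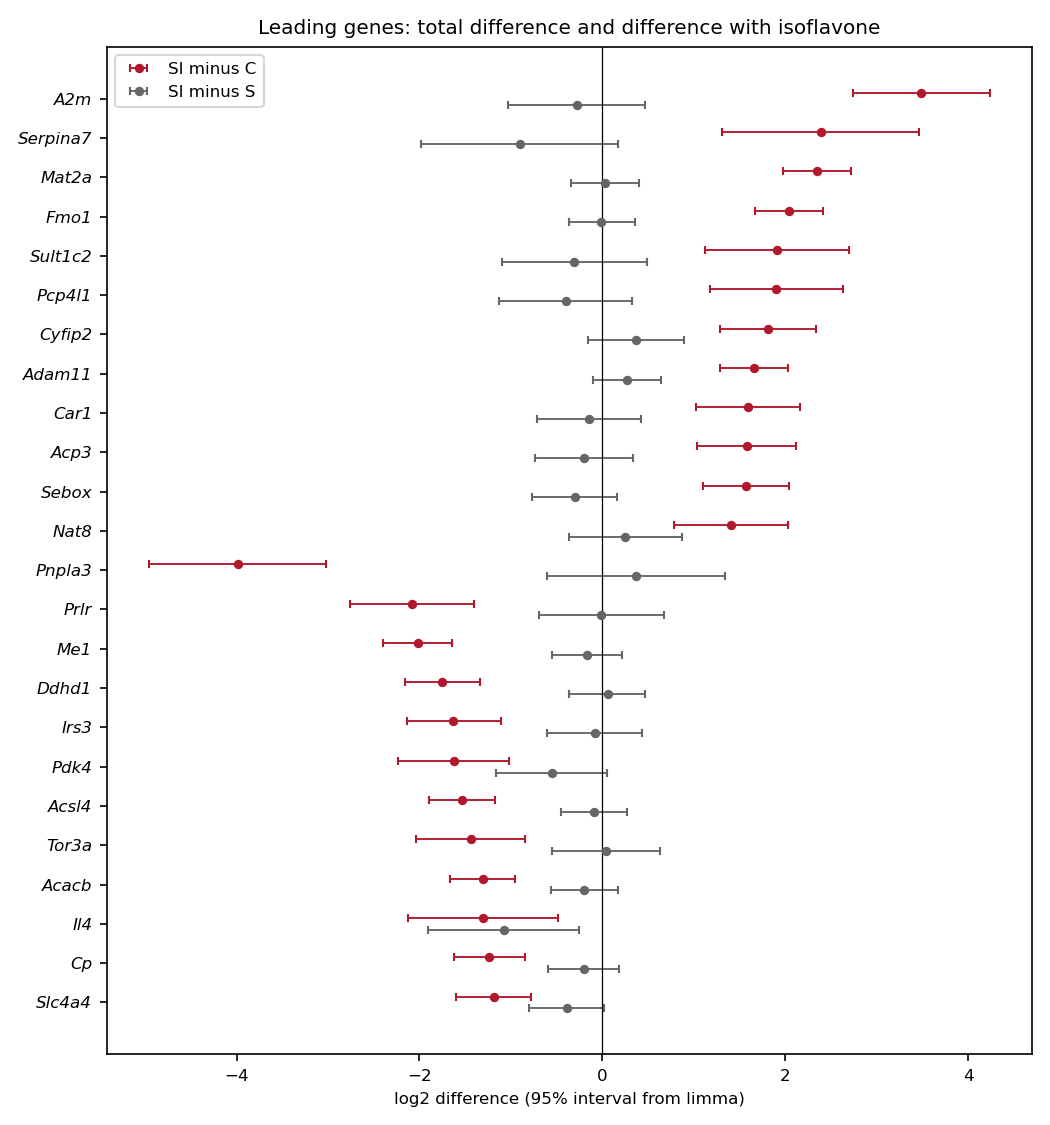
Log2 difference with its 95% interval from limma for the 24 leading genes, SI minus C in red and SI minus S in grey. The red intervals lie away from 0, as the choice of genes requires; the grey ones run from -1.98 to 1.34 and include 0 except for *Il4*.

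The protein change was also measured in animals outside this comparison. S and CI share no liver with SI and C, and in them soy protein again replaces casein, but the isoflavone is in the casein diet. In S against CI 1260 probe sets passed (6.77%), 638 higher (3.43%) and 622 lower (3.34%). The CI arrays had median intensities of 251.1, 227.2, 248.7, 246.4 and 254.7, and the S arrays between 227 and 237.1. After median centring 1127 were higher and 296 lower in S against CI. The counts that follow use the values as deposited. Of the 650 probe sets higher in SI than in C, 639 (98.3%) had the same sign in S minus CI, where 43.8% of all probe sets are above 0. Of the 687 lower ones, 674 (98.1%) had the same sign, against 56.2% of all. The test in S against CI was passed in the same direction by 387 of the higher ones (59.5% of them, and 60.7% of the 638 higher calls there), and by 340 of the lower ones (49.5% of them, and 54.7% of the 622 lower calls there). None passed in the opposite direction. Their median difference was 0.46 in SI minus C and 0.38 in S minus CI for the higher ones, and -0.50 in SI minus C and -0.40 in S minus CI for the lower ones. Both tests draw on 1 spread per probe set estimated over all 30 arrays.

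Of the 24 leading genes, 23 had the same sign in S minus CI and 22 passed there, against 7.65% of all genes (4.47% higher and 3.18% lower). *Pnpla3* had levels of 8.32, 8.45, 6.19, 8.55 and 7.07 in S, against 13.05, 12.72, 13.18, 12.70 and 10.74 in CI, a difference of -4.76 ± 0.47 (adjusted p = 2.5e-07). *Mat2a* had 12.43, 11.95, 11.81, 12.13 and 11.98 in S, against 9.86, 9.86, 9.71, 9.56 and 9.25 in CI, a difference of 2.41 ± 0.18 (adjusted p = 2.03e-09). In both genes the S and CI livers did not overlap. *A2m* differed by 3.39 ± 0.37, *Prlr* by -1.72 ± 0.33, *Asns* by 2.03 ± 0.24 and *Acacb* by -0.88 ± 0.18. Beside *Mat2a* and *Fmo1*, *Smim14* had the smallest p in S against CI, at -1.1 ± 0.11 there (adjusted p = 2.16e-07) and -0.73 ± 0.11 in SI minus C. The 2 leading genes that did not pass were *Slc4a4* at -0.61 ± 0.20 (adjusted p = 0.0602) and *Il4* at 0.38 ± 0.40 (0.635). Of the 28 genes of fatty acid and triglyceride synthesis, 7 fell and 1 rose in S against CI with a median of -0.48, *Fasn* among them at -1.50 ± 0.47 (adjusted p = 0.0484). Counts were equal in both comparisons for some lists, such as cholesterol synthesis, bile acid metabolism and acute phase proteins. Other lists changed. For the cell cycle list 2 rose and 0 fell in S against CI (median 0.1), beside 1 and 3 in SI against C (median -0.11). For the methionine list 3 rose and 4 fell, beside 4 and 1. For xenobiotic metabolism 5 rose and 6 fell, beside 5 and 2, and for the urea cycle list 3 and 7, beside 2 and 2.

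**Figure D5:**
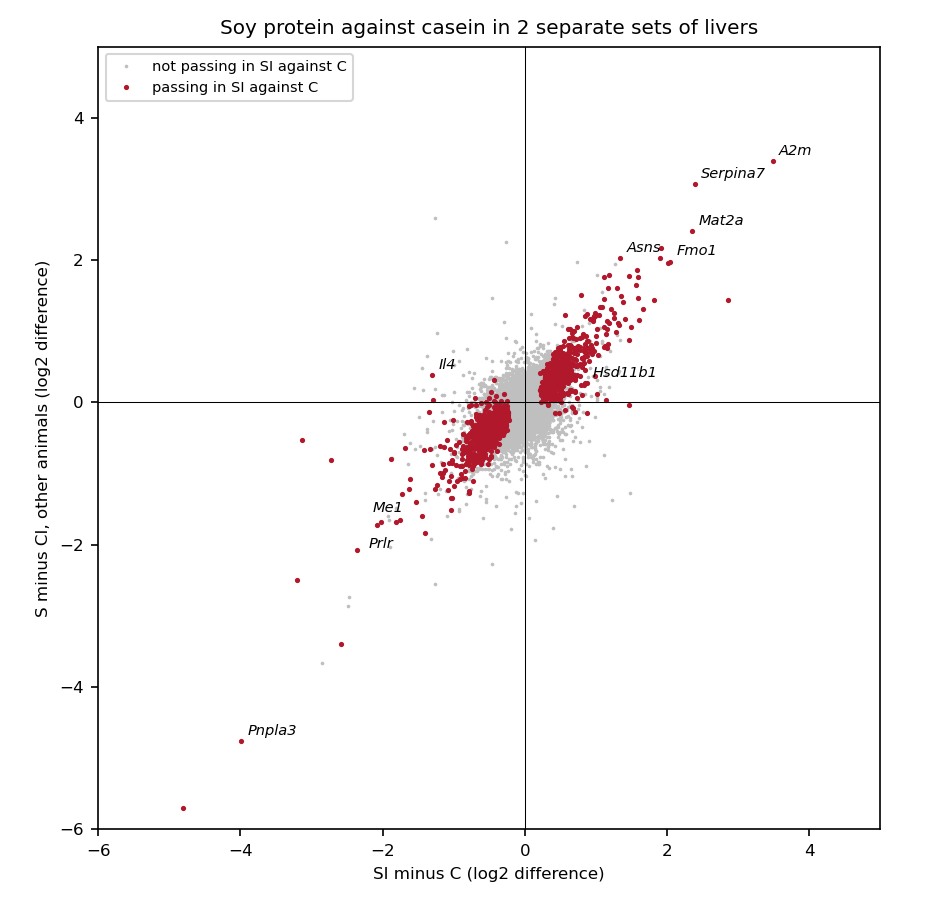
Log2 difference of each tested probe set in SI minus C (horizontal) against S minus CI (vertical), 2 comparisons with no liver in common; red points passed in SI against C. *Pnpla3* (3 probe sets, 2 of them unlabelled), *Mat2a*, *Fmo1* and *A2m* lie near the diagonal, *Hsd11b1* lies closer to the horizontal axis, and *Il4* has opposite signs.

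A difference between SI against C and S against CI would come from the isoflavone effects in both proteins added together. Isoflavone effects of opposite sign in soy protein and in casein would cancel in this sum and could not be found by it. The isoflavone effect in casein alone, CI against C, was not tested here. By the test of the sum 0 probe sets passed (0%), the smallest adjusted p was 0.557, and 574 had an unadjusted p under 0.05 against 931 by chance. The smallest p was that of *Frmpd2*, at 0.56 ± 0.23 in SI minus C and -1.03 ± 0.23 in S minus CI. *Cnp* came next, at -0.44 ± 0.13 in SI minus C and 0.32 ± 0.13 in S minus CI. Its call in SI against C (adjusted p = 0.0407) was lost without any one of SI replicates 2, 4 and 5 and C replicates 2, 3 and 4 (up to 0.118). *Hsd11b1* was the third in order, with a mean of 14.98 ± 0.09 in SI, 14.92 ± 0.11 in S, 14.65 ± 0.11 in CI and 14.11 ± 0.26 in C (SD, n = 5 each). Its difference was 0.87 in SI minus C and 0.27 ± 0.10 in S minus CI (adjusted p = 0.109), and the gap of 0.59 ± 0.15 between them had unadjusted p = 0.000363 and adjusted p = 1. For *Ccnb2* the difference was -0.69 in SI minus C and -0.04 ± 0.18 in S minus CI, and the gap of -0.65 ± 0.25 likewise had adjusted p = 1. *Apoc2*, *Kif20a*, *Top2a* and *Gpt2* were likewise within 0.06 of 0 in S minus CI, at -0.02, -0.01, -0.03 and 0.06, and none of these gaps passed. *Pemt*, higher in SI than in C, had a lower mean in S than in CI. Its levels were 13.40, 13.91, 13.97, 13.42 and 13.44 in S, against 13.90, 13.99, 14.04, 13.58 and 13.37 in CI.

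With the isoflavone held equal, SI against CI, 2168 probe sets passed (11.6%), 1025 higher (5.5%) and 1143 lower (6.14%). All but 1 of the CI arrays had a higher median intensity than any SI array. After median centring 2234 were higher and 537 lower. *Mat2a*, *Fmo1* and *Fgr*, a Src-family kinase of myeloid cells, had the smallest p. *Mat2a* differed by 2.45 (adjusted p = 1.46e-09), *Fmo1* by 1.97 (1.01e-07) and *Fgr* by 0.96 (3.68e-07), beside 0.67 ± 0.10 in SI minus C. *Pnpla3* stood at -4.39 (1.01e-06) and *Me1* at -1.85 (3.68e-07). This comparison shares the SI livers with SI against C, so the values are set side by side only.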

How the data were processed

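The authors deposited 1 table of linear intensity values per probe set from Affymetrix rat arrays, which they had put through the SuperNORM normalization service, per the labels; those do not state the reference level of the scale. Of 31099 probe sets 57 controls were left out. Values under 16 were raised to 16 and log2-transformed, and 18625 probe sets were tested whose mean over 30 arrays lay above the 40th percentile (7.39 log2, intensity 168). Platform annotation named 20832 probe sets with 1 symbol; 436 with several and 9831 with none stayed unnamed. For each of 10699 genes the brightest tested probe set was used.

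A model with 1 mean per diet over the 30 arrays was run in limma 3.58.1 (R 4.3.3; 24 residual degrees of freedom, mean-variance trend, two-sided tests, Benjamini-Hochberg adjustment across the 18625 probe sets in each of 5 comparisons, threshold 0.05). Precision is limited by the 5 arrays per diet; the titles call them biological replicates. The diets, the 18 pathway and 13 cell lists (702 genes, 587 tested) and the genes named were chosen with earlier results of these data known. Named were the 12 genes most higher and the 12 most lower among those passing without overlap of the groups, up to 4 passing members per list by p, 13 lipid genes (11 tested), and the 3 genes of smallest p in each of the other 4 comparisons. The other 12 passing list members and the 7 genes with the ATF motif were named after their values were seen. On simulated data with 200 of 18625 probe sets changed in SI, the SI against C test recovered 73.1% of 1.5-fold, 88.1% of 2-fold and 100% of 4-fold changes, with 12 false among 186 calls. The simulated noise was normal, independent between probe sets and of equal spread in each diet. These rates therefore need not hold for the real livers. Alternatives were 3 array scalings, other floors, filters, thresholds and fits, array weights, a replicate block and each array left out in turn. Promoters were read from RefSeq (GRCr8). Figures used matplotlib 3.10.9 under Python 3.11.15.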

Additional observations from a re-analysis of the deposited data

Results flagged for a closer look

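Among 196 sets of 5 livers, 1 set for each of 98 named genes in SI and in C, 5 held a liver far from the other 4, and chance alone gives about 1 in 20. *Mat2a* stood at 10.34 in C replicate 1, where the other C livers lay between 9.53 and 9.68; this liver was still under every SI liver. *Glul* stood at 13.27 in SI replicate 5, with the other SI livers between 12.89 and 13.00, and at 12.24 in C replicate 2, with the other C livers between 12.53 and 12.64. *Smad7* stood at 9.43 in C replicate 3, above every SI liver, with the other C livers between 8.48 and 8.72. *Hpd* stood at 15.18 in C replicate 2, with the lowest of the other C livers at 14.94 and the highest at 15.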

How the results depend on the processing

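Each count is given as passing, then higher and lower. In SI against C the counts were 470, 270 and 200 at a threshold of 0.01, and lower calls were 395 after median centring, 345 after equal median and spread, 454 with only the compared arrays and 446 without C replicate 3 and CI replicate 3. With 1 array left out, SI against C gave 836 to 1297 passing, 422 to 629 higher and 383 to 681 lower. In SI against CI the counts were 772, 417 and 355 at 0.01, and 2234 higher and 537 lower after median centring; with 1 array left out they were 1353 to 2217, 658 to 1000 and 631 to 1217. In S against CI they were 517, 285 and 232 at 0.01, 831, 418 and 413 with only the compared arrays, and 1127 higher and 296 lower after median centring; with 1 array left out they were 846 to 1335, 420 to 679 and 396 to 656. SI against S and the difference of the differences had 0 under each alternative run. A higher or lower share that moves with the scaling limits any statement about direction over many genes; 12 of 31 list medians changed sign under a scaling. Of 85 named genes that passed in SI against C, 53 passed whichever array was left out and 44 of these under each other setting run on single genes at 0.05 as well. Ranges given above with single arrays left out do not cover these other settings. Outside left-out arrays and the threshold of 0.01, 109 values of named genes lost the call. Over 2070 values of named genes under the alternatives, 313 lost the call and 3 gained one. Among genes that passed, 0 values reversed in sign. Changes of sign were not counted for the 13 named genes that did not pass. Over all tested probe sets, SI and C arrays of the same replicate number correlated in their deviations at 0.11, 0.05, -0.09, -0.04 and 0.10. Of 5 SI arrays, 2 were closest to the C array of their own number. More probe sets passed with the replicate block, 1667 in SI against C (816 higher, 851 lower) beside 1337 without it. In SI against CI 2541 passed beside 2168, and in S against CI 1565 beside 1260. With the block *Cpt1a* gained a call (adjusted p = 0.0364) and *Il4* lost one. Whether livers of the same number shared a condition was not tested. The causes of these shifts were not tested.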
